A study of Mus musculus with 32 samples.

Results

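The 8 genes described here, *Arg1*, *Ear1*, *Ear2*, *Rnase2a*, *Saa3*, *Chil3*, *Mrc1* and *Retnla*, were taken by symbol from the 31053 genes of single-cell RNA-seq libraries of cultured mouse marrow cells, as genes linked with alternative activation of myeloid cells. They were measured in the 15116 cells with at least 2 *Tyrobp* UMIs (unique molecular identifiers, each standing for 1 captured transcript) out of 83906 cells kept after filtering. *Tyrobp* encodes the DAP12 adaptor of myeloid receptors. The genes were chosen by values of these data, namely the share of cells with a UMI, the UMIs per 10000 and co-detection in *Tyrobp* cells and their spread over pools, so those values are given as a description and carry no test.

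The cells were BMSC-OBs, adherent bone marrow stromal cells of Diversity Outbred mice of both sexes, differentiated in medium with ascorbic acid, β-glycerophosphate and dexamethasone. Diversity Outbred mice descend from a set of inbred founder strains, so each animal is genetically unique. Cells of 77 mice were mixed into 16 pools of 4 or 5 mice (pools 1 to 14, 17 and 18), every pool received the same culture, and each pool was sequenced in 2 runs of which run HGYVNCCX2 is used here. There was no treatment arm, the age of the mice is not given in the sources used here, cells were not assigned to mice, and the pool was the replicate.

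Macrophages exposed to interleukin-4 or interleukin-13 switch on a program, through the transcription factor STAT6, that is often called alternative activation. Its classical readouts in the mouse are arginase 1 (*Arg1*), which splits arginine into ornithine and urea, the mannose receptor CD206 (*Mrc1*), the chitinase-like lectin Ym1 (*Chil3*) and the resistin-like molecule RELMα (*Retnla*). *Ear1*, *Ear2* and *Rnase2a* encode eosinophil-associated ribonucleases of the RNase A superfamily, a family that has expanded by duplication in rodents, and *Saa3* encodes an acute-phase serum amyloid A made outside the liver. Several of these genes are not private to activated macrophages: *Chil3* is also a gene of neutrophil precursors, and Ear ribonucleases take their name from eosinophil granules.

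All 8 genes are protein coding. In GRCm38 coordinates with GENCODE annotation, *Ear1* (ENSMUSG00000072601) lies at chr14:43818765-43875517 on the minus strand, *Ear2* (ENSMUSG00000072596) at chr14:44102654-44103534 on the plus strand and *Rnase2a* (ENSMUSG00000047222) at chr14:51255262-51256112 on the minus strand. *Arg1* (ENSMUSG00000019987) lies at chr10:24915221-24927484 (minus), *Mrc1* (ENSMUSG00000026712) at chr2:14229392-14332057 (plus) and *Saa3* (ENSMUSG00000040026) at chr7:46711998-46715700 (minus). *Chil3* (ENSMUSG00000040809) lies at chr3:106147554-106167564 (minus) and *Retnla* (ENSMUSG00000061100) at chr16:48842551-48844461 (plus).

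RefSeq start-site windows, 250 bases before to 50 after the start, were at hand for 7 of the 8 genes, all but *Arg1*. Those of *Ear1* (chr14:43819590-43819889, minus strand, GRCm38.p6, inside the GENCODE span of the gene) and *Ear2* (chr14:44102404-44102703, plus strand) are shown because their reads can be confused and because most cells with *Ear1* also had *Ear2* in the pools where both were abundant. Both are printed 5′ to 3′, with capitals at the bases that differ or have no counterpart in the alignment of the pair.
Ear1: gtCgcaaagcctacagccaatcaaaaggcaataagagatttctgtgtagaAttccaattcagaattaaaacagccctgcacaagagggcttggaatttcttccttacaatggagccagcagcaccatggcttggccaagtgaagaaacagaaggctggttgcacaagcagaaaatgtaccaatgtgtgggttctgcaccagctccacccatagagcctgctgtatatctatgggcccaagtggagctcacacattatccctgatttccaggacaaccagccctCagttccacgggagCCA
Ear2: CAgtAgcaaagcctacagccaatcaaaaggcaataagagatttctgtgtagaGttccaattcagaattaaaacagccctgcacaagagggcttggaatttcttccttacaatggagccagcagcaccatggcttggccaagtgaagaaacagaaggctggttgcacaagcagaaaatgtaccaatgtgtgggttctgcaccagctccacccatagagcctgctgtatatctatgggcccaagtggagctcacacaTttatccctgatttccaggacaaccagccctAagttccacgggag
The windows of the pair were identical in 294 of 303 aligned columns (97.0%) and differed by 3 mismatches, whereas each shared 66.1% (*Ear1*) and 64.6% (*Ear2*) of its columns with the window of *Rnase2a*. The longest coding transcripts of *Ear1* (713 bases) and *Ear2* (719 bases) were 96.0% identical, and either was 77.9% identical to that of *Rnase2a*. Within the last 500 bases of the transcript, where 3′ reads fall, 33 of 410 possible 91-base reads (8.05%) of *Ear1* and 38 of 410 (9.27%) of *Ear2* matched another gene of the family exactly, against 0 for *Rnase2a*. Counts of *Ear1* and *Ear2* are uncertain beyond these exact matches, since reads with few mismatches could also be placed on the wrong copy. The study also names as a limit that its alignment left out genetic variation of the founder strains. The letters TTCNNNNGAA, the spacing that STAT6 prefers, were found in the window of *Retnla* alone among the 7, and TTCNNNGAA, the spacing of other STAT proteins, in that of *Chil3* alone. Both motifs read the same on either strand, and 6.95% and 8.3% of the 32851 windows of all genes hold them.

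The *Tyrobp* cells carried further markers of myeloid cells. On average over pools, *Fcer1g* was detected in 92.8% of them against 18.7% of the cells with 0 *Tyrobp* UMIs, *Csf1r* in 63.9% against 6.6% and *Ptprc* in 56.8% against 4.2%. They numbered 278 to 2147 per pool (4.74% to 35.4% of a pool's cells), had a median of 5190.5 UMIs against 11400 in *Tyrobp*-zero cells, and came from libraries of 5.40e+07 to 1.01e+08 UMIs. *Ibsp*, an osteoblast gene, was detected in 97.7% of the *Tyrobp* cells and 99.3% of the *Tyrobp*-zero cells, so a single UMI in a droplet is not read as expression. Of the run's 107853 barcodes, 2.84% occurred in more than 1 pool, and 58 *Tyrobp* cells shared their barcode with a *Tyrobp* cell of another pool. Pools 5 to 8 stood apart in the Ear genes, so the tested comparisons are also given without them for the members that then passed the filter on low counts.

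Detection of each gene is read against *Tyrobp*-zero cells, which hold more UMIs per cell. *Mrc1* was detected in 46.6% of the *Tyrobp* cells, *Chil3* in 21.8%, *Saa3* in 10.5%, *Rnase2a* in 7.84%, *Ear2* in 7.38%, *Arg1* in 6.69%, *Ear1* in 5.62% and *Retnla* in 0.351% (53 cells). The mean share over pools in *Tyrobp*-zero cells was 6.43% for *Mrc1*, 10.3% for *Chil3*, 2.97% for *Saa3*, 2.34% for *Rnase2a*, 1.13% for *Ear2*, 0.681% for *Arg1*, 0.532% for *Ear1* and 0.044% for *Retnla*. The share in *Tyrobp* cells was above that in *Tyrobp*-zero cells of the same pool in 16 of 16 pools for *Arg1*, *Saa3*, *Chil3* and *Mrc1*. It was above it in 9 pools for *Ear1*, 11 for *Ear2*, 14 for *Rnase2a* and 6 for *Retnla*, and in the rest it was at or under it. *Tyrobp* cells held 87.3% to 89.9% of all UMIs of *Arg1*, *Ear1*, *Ear2* and *Chil3*, but 66.5% of those of *Rnase2a*. *Tyrobp*-zero cells with collagen genes at 1% or more of their UMIs held 23.8% of the *Rnase2a* UMIs. By pool, the part of the *Rnase2a* UMIs in *Tyrobp* cells ran from 2.53% in pool 13 to 87.3% in pool 18.

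The receptor *Mrc1* was the most even of the 8 over pools. Its level, in counts per 1000000 UMIs of the summed *Tyrobp* cells of a pool (CPM), was 335 ± 127 (SD, n = 16 pools), with 174 in pool 1, a median of 298 and 533 in pool 6. It was detected in 29.8% to 62.9% of a pool's *Tyrobp* cells. *Arg1*, the enzyme that competes with nitric oxide synthase for arginine, was far more uneven: 2.02 CPM in pool 1, a median of 15.5 and 405 in pool 6, with 70.0 ± 118 (SD, n = 16) over all. Pools 6, 5 and 14 (405, 262 and 204 CPM) lay above pool 7 (96.8), and the remaining 12 pools were at 32.6 or less.

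The ribonucleases *Ear1* and *Ear2* were abundant in 4 pools and near the floor elsewhere. *Ear1* was at 81.9, 93.2, 126 and 264 CPM in pools 5, 6, 7 and 8, at 3.47 in pool 14, at 2.71 in pool 9 and under 1 in the other 10, of which 6 had no UMI. A count of 0 of 2147 cells in pool 2 allows a share of cells with a UMI of up to 0.14%, and 0 of 278 in pool 4 up to 1.08%, by 3 counts and for counting error only. *Ear2* was at 176, 206, 289 and 526 CPM in the same 4 pools, at 24.96 in pool 18, 8.81 in pool 14 and 3.21 or less in the rest. Pools 5 to 8 held 99.1% of the *Ear1* UMIs and 96.8% of the *Ear2* UMIs. *Rnase2a* was spread over 6 pools, with 442 CPM in pool 14, 199 in pool 8, 125 in pool 6, 112 in pool 18, 107 in pool 5 and 33.3 in pool 7, against 7.15 or less in the other 10.

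After thinning every cell to 2000 UMIs, a depth that 1556 *Tyrobp* cells and 11886 *Tyrobp*-zero cells did not reach, the Ear genes were still far above background. *Ear2* was detected in 13.9%, 16.8%, 17.8% and 25.8% of the thinned *Tyrobp* cells of pools 5, 6, 7 and 8, against 0.223%, 0.988%, 1.18% and 1.27% of the *Tyrobp*-zero cells. The unthinned shares were 18.8%, 24.9%, 23.3% and 29.5%, against 1.58%, 4.44%, 5.67% and 5.13%.

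Among the secreted products, *Chil3* reached the highest counts. It was at 16.8 CPM in pool 10, a median of 2388 and 8141 in pool 18, with 2421 ± 2326 (SD, n = 16). Its pools fell into separate sets, since pools 1, 2, 3, 10 and 13 were between 16.8 and 108 CPM and 10 others at 1800 or more, with pool 9 at 602. *Saa3* was at 9.71 CPM in pool 2, a median of 71.2 and 758 in pool 18, and pools 18, 8 and 14 (758, 655 and 268) were the highest. *Retnla* had no UMI in 10 pools and was at 21.2 CPM in pool 6, 19.8 in pool 18 and 5.65 in pool 5, and all of its 410 UMIs in *Tyrobp* cells sat in 53 cells, with 120 in 1 cell.

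**Figure D1:**
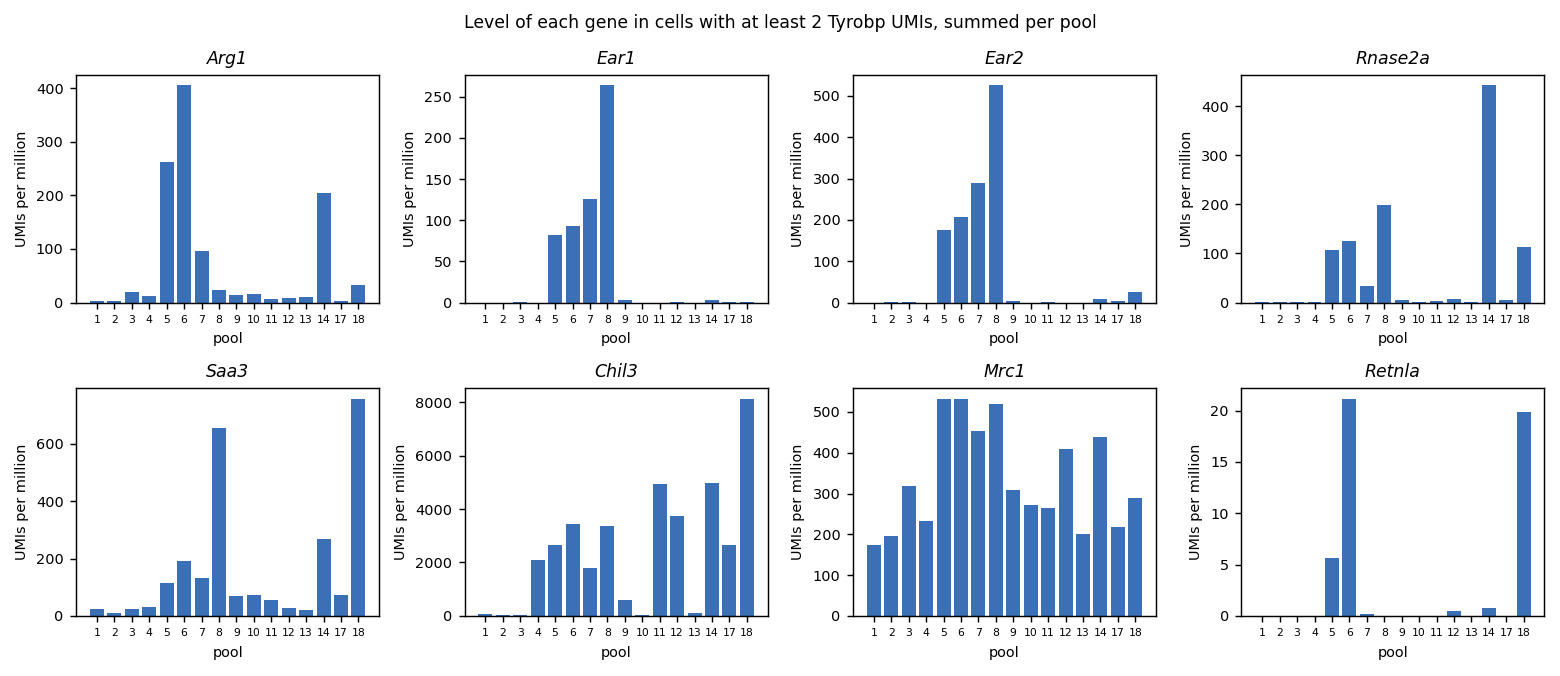
Level of each of the 8 genes in cells with at least 2 *Tyrobp* UMIs, 1 panel a gene, with CPM on a linear axis from 0 and 1 bar for each of 16 pools. *Mrc1* stayed between 174 and 533 CPM, while *Ear1* and *Ear2* stood at 81.9 CPM or more in pools 5 to 8 and at 24.96 or less in every other pool.

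A few cells carried much of each gene: the 1% of *Tyrobp* cells with the most UMIs of a gene held 61.0% of the *Arg1* UMIs, 58.3% for *Saa3*, 55.8% for *Rnase2a* and 50.2% for *Ear1*, against 25.4% for *Chil3* and 14.4% for *Mrc1*. In bulk or summed counts, more cells of a type and more RNA per cell cannot be told apart.

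*Ear1* and *Ear2* were counted in a similar ratio in the 4 pools where both were abundant. *Ear1* made up 31.7%, 31.1%, 30.4% and 33.4% of the summed UMIs of the pair in pools 5, 6, 7 and 8, and 32.2% over them (4345 and 9154 UMIs, exact 95% interval 31.4% to 33.0%, counting error only). In pool 18 it made up 0.866% (2 of 231 UMIs, 0.105% to 3.09%). In pool 14 it made up 28.3% of 46 UMIs (15.99% to 43.5%) and in pool 9 47.5% of 40 UMIs (31.5% to 63.9%). Of the 3917 *Tyrobp* cells of pools 5 to 8, 755 had both transcripts, 69 *Ear1* alone, 225 *Ear2* alone and 520 all of *Ear1*, *Ear2* and *Rnase2a*. In pool 18, 91 cells had *Ear2* without *Ear1*, 1 had *Ear1* without *Ear2* and none had both. The part of reads placed on the wrong copy in these ratios was not tested.

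In pools 5 to 8, UMIs of *Cd74*, the invariant chain of MHC class II, were found more often in cells with an Ear UMI than in the remaining *Tyrobp* cells. Of the 824 cells with *Ear1*, 83.7% had *Cd74* (24.6% of the remaining cells), 91.6% *Ear2* (7.27%), 65.8% *Rnase2a* (9.25%) and 35.0% *Arg1* (10.7%). *Mrc1* (88.1% against 50.4%) and *Chil3* (72.9% against 29.9%) were frequent among the remaining cells too. In pool 6, 43.4% of the *Tyrobp*-zero cells had a *Chil3* UMI. Of the 980 cells with *Ear2*, 77.0% had *Ear1*. Of the *Rnase2a* cells, 86.4% had *Cd74* (23.8% of the remaining cells) and 71.7% *Ear2*. *Arg1* cells had *Gpnmb*, a gene of lipid-handling macrophages, in 92.4% (70.4% of the remaining cells), *Mrc1* in 88.2% (52.8%) and *Cd74* in 82.0% (28.6%), the monocyte gene *Ly6c2* in 1.8% and the granule gene *Camp* in 4.7%. Cells with a given transcript were deeper than the remaining cells (for *Ear1*, a median of 7126.5 against 5435 UMIs).

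**Figure D2:**
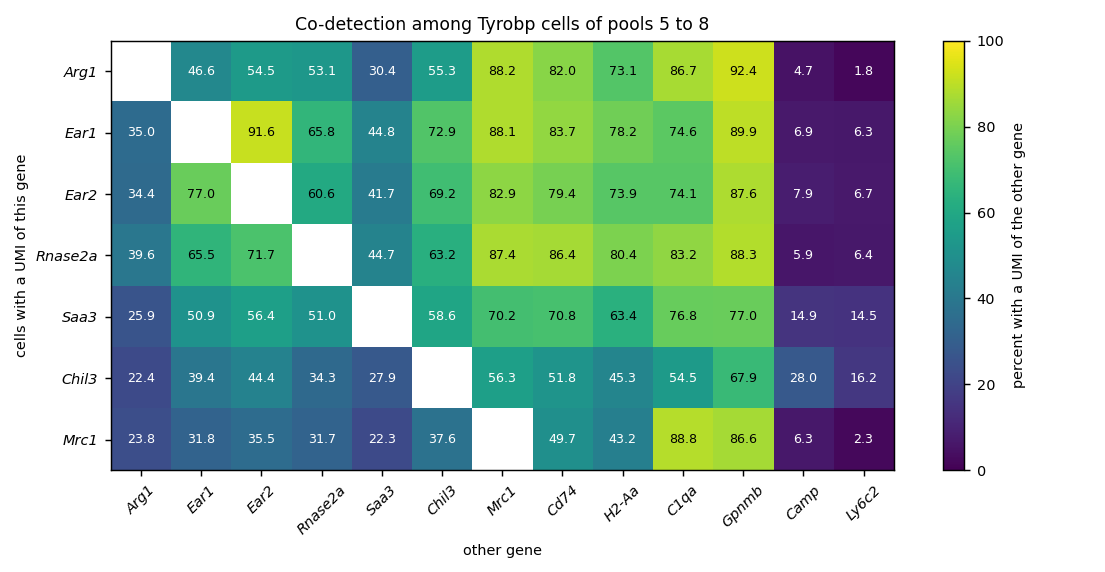
Percent of the *Tyrobp* cells of pools 5 to 8 with a UMI of the gene on the vertical axis that also had a UMI of the gene on the horizontal axis, as shaded cells with the percent printed. *Ear1* cells had *Ear2* in 91.6% and *Cd74* in 83.7%, while *Chil3* cells had *Cd74* in 51.8% and *Camp* in 27.98%.

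Over all pools, 46.9% of the *Chil3* cells had *Ngp* (3.15% of the remaining cells), 40.9% *Camp* (2.89%) and 35.5% *Ly6c2* (0.956%). Of the 53 *Retnla* cells 81.1% had *Chil3* (21.6% of the remaining cells) and 62.3% *Ngp* (12.51%). In pool 18, which held 32 of them, 57.9% of the remaining cells had *Chil3* too. *Mrc1* cells, with a median of 5915 UMIs against 4505, had the complement gene *C1qa* in 89.3% against 53.4% of the remaining cells.

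Eosinophil genes were nearly absent from the *Tyrobp* cells. All *Tyrobp* cells together had 1 UMI of *Epx* (eosinophil peroxidase) and 14 of *Prg2* (major basic protein), with 82 of *Siglecf* and 330 of *Ccr3*. The 16 cells with 3 or more UMIs of these 4 genes had 0 UMIs of *Ear1*, *Ear2* and *Rnase2a*. The cells that held these ribonucleases are called by their genes here and given no cell type name.

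The genes whose counts moved most like each member's from cell to cell were found by the mean within-pool Pearson correlation over 8256 genes, a description without a test because cells of a pool share a library and differ in depth. *Ear1* (5 pools) was most like *Ear2* (0.795), then *Cd74* (0.433), *Naaa* (0.425), *H2-Aa* (0.404) and *Slc7a2* (0.398), a cationic amino acid transporter. *Ear2* (7 pools) had *Ear1* (0.655), *Cd74* (0.411), *Rnase2a* (0.393), *Naaa* (0.385) and *Slc7a2* (0.374). *Rnase2a* (9 pools) had *Ear2* (0.376), *Ccl8* (0.353), *Cd74* (0.334), *Mgl2* (0.320) and *Clec10a* (0.312), the last of which encode C-type lectins. The 3 ribonucleases thus shared *Cd74* among their nearest genes.

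*Mrc1* (16 pools) was most like *F13a1* (0.610), *Selenop* (0.582), *Cbr2* (0.566), *C1qc* (0.526) and *C1qa* (0.512), and *Arg1* (14 pools) had weaker neighbours in *Fcgr2b* (0.214), *F13a1* (0.210), *Slc7a2* (0.210), *Mrc1* (0.198) and *Sdc3* (0.176). *Chil3* (13 pools) followed the neutrophil genes *Lcn2* (0.7999), *S100a8* (0.798), *S100a9* (0.782), *Wfdc21* (0.777) and *Ngp* (0.764), and its correlation with *Mrc1* was -0.207. *Saa3* (15 pools) had no close neighbour, with *F10* (0.193), *Rnase2a* (0.185), *Vcan* (0.184), *Fpr2* (0.170) and *Ear2* (0.161). *Retnla* could be compared in 2 pools and had *Retnlg* at 0.141.

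To ask in which myeloid cells the members were higher, *Tyrobp* cells with at least 3 UMIs of a set of gate genes were compared with cells that had 0, within the same pools, for 6 gates that do not use the members. Counts were summed per pool and side, and edgeR's quasi-likelihood test was fitted over all genes with the pool as a block and Benjamini-Hochberg adjustment. Cells chosen for 3 UMIs were deeper than cells with 0 in 5 of the 6 gates, by median UMIs of 9453 against 4519 (dividing cells), 5952.5 against 3462 (*Trem2*-*Gpnmb*), 7216.5 against 4824.5 (MHC class II), 6966 against 5116.5 (*Ly6c2*-*Ccr2*) and 5392.5 against 4729 (C1q), while granule cells had 4773.5 against 5144. Depth was scaled out by library size only. A gene near 0 on a side passes the filter on low counts through the other side, so where 5 or more pools were at 0 on a side the levels of a tested member are given without a p. The levels of members that did not pass the filter, where given, have no p either. A gene called here was past an adjusted p of 0.05. With the pool as a block, the p-values weigh the mean difference within pools against its variation from pool to pool.

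Cells with transcripts of MHC class II, the machinery of antigen presentation (*Cd74*, *H2-Aa*, *H2-Ab1*, *H2-Eb1*), held more *Ear2*, *Rnase2a* and *Arg1* transcripts than cells without. Of these 3 genes, *Rnase2a* alone kept its call without pools 5 to 8. The comparison used 10 pools, with 1615 cells against 7583. In it 13.5% of the 9894 genes tested were called, 7.62% as higher and 5.86% as lower. Of the 8 members, 6 passed the filter on low counts, 4 were called higher and none lower, while *Ear1* and *Retnla* did not pass.

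*Ear2* was at 315, 391.6, 1271 and 1474 CPM in MHC class II cells of pools 5, 6, 7 and 8, against 23.0, 61.7, 124 and 7.5 in cells without, and at 96.6 against 1.9 in pool 18. The log2 fold change was 3.92 (SE 0.57, adjusted p = 0.000642, higher in 8 of 10 pools and lower in 1). *Rnase2a* was at a median of 151 CPM (0 to 1532) against 7.02 (2.16 to 108), with its highest level in pool 14, and the log2 fold change was 3.63 (SE 0.47, adjusted p = 0.000168, 9 pools of 10). *Arg1* was at 458, 889, 497 and 67.5 CPM in pools 5 to 8 against 48.5, 21.6, 38.7 and 0.5, and at 590 against 120 in pool 14 and 127 against 3.9 in pool 18. It was 0 in the MHC class II cells of pools 2 and 12. Its log2 fold change was 3.33 (SE 0.60, adjusted p = 0.00228, 7 pools of 10).

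*Saa3*, *Mrc1* and *Chil3* were less firmly tied to MHC class II cells. *Saa3* had a log2 fold change of 2.02 (SE 0.61, adjusted p = 0.0381) but was higher in 6 pools and lower in 4. Its gap was widest in pool 18 (2505 against 209 CPM), pool 8 (1500 against 132) and pool 14 (1424 against 112), and its call was lost without any 1 of pools 5, 6, 7, 8, 14 and 18 (1.74 to 2.10, adjusted p = 0.0664 to 0.0961). *Mrc1* was 542 ± 317 CPM against 314 ± 82.2 (SD, n = 10) and its difference of 0.71 (SE 0.28, adjusted p = 0.110) was not called, although it was without pool 12 (0.90, adjusted p = 0.0325) or pool 17 (0.88, adjusted p = 0.0409). *Chil3* was not called either, at -0.74 (SE 0.70, adjusted p = 0.537) with 5 pools higher and 5 lower.

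*Ear1* did not pass the filter, and its level was above that of the other side in 7 of 10 pools and below it in 2. It was at 144, 178, 532 and 741 CPM in the MHC class II cells of pools 5, 6, 7 and 8, against 4.8, 24.5, 57.0 and 2.5 in the cells without, but over all 10 pools the sides overlap. Without pools 5 to 8, 6 pools remained and *Rnase2a* was the one member still called, at 2.76 (adjusted p = 0.00813). *Arg1* then was at 2.00 (adjusted p = 0.195), *Saa3* at 1.14 (adjusted p = 0.586), *Mrc1* was at 0.23 (adjusted p = 0.813) and *Chil3* at -2.10 (adjusted p = 0.304), and *Ear2* did not pass the filter.

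The cells on either side also differed in other cell-type markers. The summed level of 5 granulocyte genes (*Camp*, *Ltf*, *Ngp*, *S100a8* and *S100a9*) was 922 CPM (15 to 3641 over pools) in MHC class II cells. In cells without it was 39889 CPM (1275 to 96819). Over all *Tyrobp* cells *S100a9* (9373 CPM) and *S100a8* (7147) had the highest mean levels of the 5. The summed level of 5 osteoclast genes was 1250 CPM in MHC class II cells against 500 CPM. The eosinophil list was at 3.81 and 4.11 CPM and that of C1q macrophages at 3414 and 4031. With the granule cells left out of both sides, *Chil3* turned to 2.42 (SE 0.53, adjusted p = 0.00997), higher in MHC class II cells. The part of osteoclast-gene cells in these results was not tested.

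**Figure D3:**
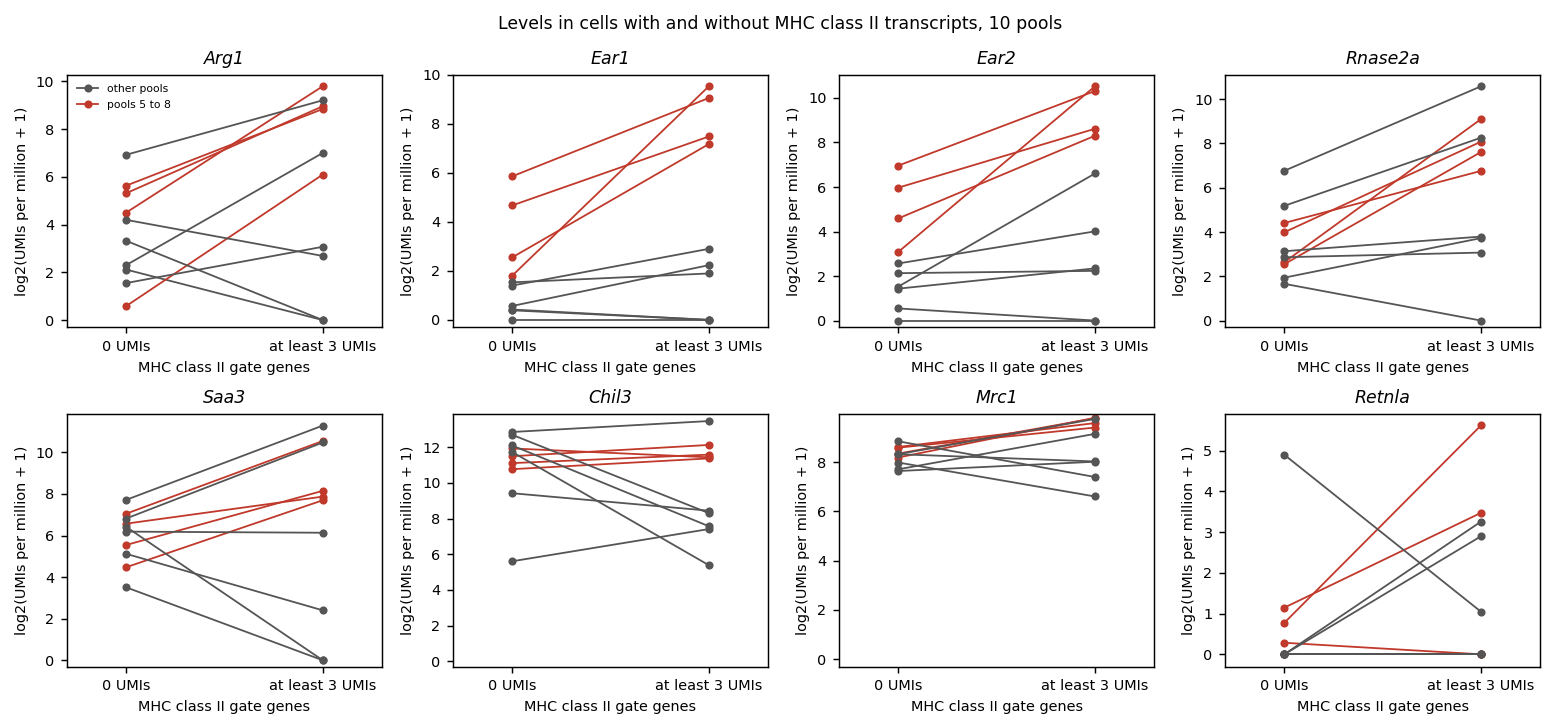
Level in cells with at least 3 MHC class II UMIs and in cells with 0, as log2(CPM + 1), with the points of a pool joined by a line, for the 10 pools compared (pools 5 to 8 in red). *Ear2* was higher on the MHC class II side in 8 pools and *Rnase2a* in 9, while *Chil3* was higher in 5 pools and lower in 5.

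*Mrc1* was higher, and the level of *Arg1* was above that of the other side, in cells with complement C1q transcripts (*C1qa*, *C1qb*, *C1qc*) or those of *Trem2* and *Gpnmb*, genes of tissue macrophages, and *Chil3* was lower. Between cells with C1q transcripts and cells without (16 pools, 10106 against 3127 cells), 51.0% of the 9412 genes tested were called (22.6% higher and 28.3% lower), so a call there is common. More genes were called higher than lower with no filter on low counts (3133 and 2222) and without pools 5 to 8 (1827 and 1479). DESeq2 gave 2374 higher and 3396 lower. *Mrc1* was 480 CPM against 41.2, a log2 fold change of 3.85 (SE 0.30, adjusted p = 6.89e-09), higher in 16 of 16 pools. *Arg1* was 101 CPM against 13.1 and higher in 15 of 16, with 330 UMIs and 9 pools at 0 on the side without C1q (fitted log2 fold 3.11). *Chil3* was 342 CPM against 7325, at -6.13 (SE 0.68, adjusted p = 4.98e-07), lower in all 16. *Saa3* was not called (149 and 174 CPM, -0.23, adjusted p = 0.711), and the other 4 members did not pass the filter. Without pools 5 to 8 *Mrc1* was at 3.99 (adjusted p = 9.40e-08), *Chil3* at -7.33 (adjusted p = 4.38e-07), *Saa3* at -0.60 (adjusted p = 0.378) and *Arg1* at a fitted 3.15. The cells without C1q carried 78265 CPM of the same granulocyte genes against 357. With granule cells left out *Chil3* was still lower, at -3.43 (adjusted p = 8.27e-06). *Rnase2a* then passed the filter, at a fitted 1.68.

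In the *Trem2*-*Gpnmb* comparison (16 pools, 10190 against 2763 cells) 61.9% of the 9195 genes tested were called (31.8% higher and 30.1% lower). These were 2928 and 2766 genes, and DESeq2, run without a filter on low counts, gave 3099 and 4844. *Arg1* was 93.4 CPM against 4.92 and higher in 16 of 16 pools, with 72 UMIs and 7 pools at 0 on the side without *Trem2* and *Gpnmb* (fitted log2 fold 4.04). *Mrc1* was at 420 against 59.7 CPM (2.68, SE 0.20, adjusted p = 1.01e-09, 16 of 16). *Rnase2a* was at a mean of 87.4 against 12.7 CPM (1.78, SE 0.46, adjusted p = 0.00226, higher in 13 of 16), but its medians over pools were in the other order, 3.57 against 6.30, the low side had 304 UMIs with 4 pools at 0, and it passed the filter in 10 of the 16 fits without 1 pool. *Chil3* was lower, at 698 against 7834 CPM (-6.04, adjusted p = 4.30e-06), and at -1.44 (adjusted p = 0.0295) with granule cells left out. *Saa3*, at -0.36 (adjusted p = 0.458), was the tested member not called. *Ear1*, at 41.0 against 8.44 CPM, had its higher level on the *Trem2*-*Gpnmb* side in 8 pools and the lower in 2, and *Ear2*, at 89.3 against 18.6, in 7 and 3. Without pools 5 to 8 *Arg1* and *Rnase2a* did not pass the filter, *Mrc1* (2.39) and *Chil3* (-7.41) kept their calls, and *Saa3* was at -0.23 (adjusted p = 0.658).

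Cells with the secondary-granule transcripts *Camp*, *Ltf* and *Ngp*, which mark maturing neutrophils, had the highest level of *Chil3*. In 11 pools (1323 against 7011 cells), where 62.0% of the 8833 genes tested were called (28.8% higher and 33.2% lower), *Chil3* was 18613 CPM against 1105, a log2 fold change of 6.17 (SE 0.75, adjusted p = 1.23e-06) in 11 of 11 pools. *Mrc1* was 9.32 against 451 CPM (-5.10, SE 0.22, adjusted p = 2.31e-12), lower in 11 of 11, with 80 UMIs on the granule side. That granule level was near the mean of 6.37 CPM in *Tyrobp*-zero cells, so the direction is given and the size of the fold is not read. *Rnase2a* was 3.64 against 115 CPM and also lower in 11 of 11, with 37 UMIs and 5 pools at 0 on the granule side against 5474 UMIs on the other (fitted log2 fold -4.28). *Saa3* was not called (135 and 235 CPM, lower in 8 of 11 pools), and its fitted log2 fold of 0.18 (adjusted p = 0.735) has the opposite sign to the means. *Arg1*, *Ear1*, *Ear2* and *Retnla* did not pass the filter. *Arg1* had 4 UMIs in the granule cells of these pools, with 9 of 11 pools at 0, and its level in the other cells was 115 CPM. *Ear1* had 19 UMIs in granule cells (8 of 11 pools at 0) against 3685 in the others, and *Ear2* 49 (4 of 11 at 0) against 7979. Without pools 5 to 8 *Chil3* was at 7.57 (adjusted p = 4.15e-07), *Mrc1* at -5.01 (adjusted p = 9.77e-10) and *Saa3* at 0.067 (adjusted p = 0.942).

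Cells with the monocyte genes *Ly6c2* and *Ccr2* were high in *Chil3* and *Saa3* and low in *Mrc1*. In 9 pools (756 against 6873 cells), where 43.0% of the 9888 genes tested were called (20.2% higher and 22.8% lower), *Saa3* was 630 CPM against 171, a log2 fold change of 2.71 (SE 0.43, adjusted p = 7.42e-05), and *Chil3* 14530 against 1517 (3.75, SE 0.38, adjusted p = 4.68e-07), both higher in 9 of 9 pools. *Mrc1* was 87.3 against 433 CPM (-2.31, SE 0.36, adjusted p = 6.14e-05) and lower in 9 of 9. *Arg1* was 12.9 against 94.8 CPM and lower in 9 of 9, with 57 UMIs and 6 pools at 0 on the *Ly6c2*-*Ccr2* side against 5391 UMIs on the other (fitted log2 fold -2.38). Its fitted fold was -0.95 with the gate on thinned counts and -1.42 with a gate of 6 UMIs, not called in either. *Ear2* (0.90, adjusted p = 0.324) and *Rnase2a* (0.32, adjusted p = 0.738) were not called, *Ear2* being called without pool 8 (1.57, adjusted p = 0.0378). Without pools 5 to 8 *Saa3* was at 3.02 (adjusted p = 0.000130), *Chil3* at 4.02 (adjusted p = 2.26e-07), *Mrc1* at -2.22 (adjusted p = 4.05e-05), *Rnase2a* at 1.25 (adjusted p = 0.204) and *Arg1* at a fitted -2.16. The *Ly6c2*-*Ccr2* cells also held 149585 CPM of the same granulocyte genes, *S100a8* and *S100a9* among them, against 11928. With granule cells left out, 3 pools remained and edgeR's adjusted p was 0.162 or more for the members, with *Chil3* at 3.78, *Saa3* at 3.14, *Mrc1* at -1.16 and *Arg1* at -1.65, and the unadjusted p was under 0.05 for 4 of the 7 tested (*Arg1*, *Chil3*, *Mrc1* and *Saa3*).

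Dividing cells, gated on *Top2a*, *Mki67*, *Cdk1* and *Birc5*, differed in *Chil3* among the 5 members tested (15 pools, 1533 against 10221 cells). There 48.2% of the 9401 genes tested were called, 24.3% higher and 23.9% lower. *Chil3* was 4742 CPM against 1994, at 2.02 (SE 0.44, adjusted p = 0.000652), higher in 14 of 15 pools. The same granulocyte genes moved with it (49767 against 17243 CPM). With granule cells left out it turned to -1.35 (SE 0.39, adjusted p = 0.00779), and without the pool block it was not called (1.34, adjusted p = 0.206). *Mrc1* (-0.38, adjusted p = 0.0968), *Arg1* (-0.52, adjusted p = 0.344), *Saa3* (-0.48, adjusted p = 0.204) and *Rnase2a* (-0.13, adjusted p = 0.803) were not called. *Ear1* had 425 UMIs in dividing cells (9 of 15 pools at 0) and 2930 in the others. Its level was 18.0 against 44.5 CPM, higher in 1 pool and lower in 9. *Ear2* had 908 UMIs (8 of 15 at 0) and 6355, at 39.0 against 96.1 CPM, higher in 1 pool and lower in 10. Without pools 5 to 8 *Chil3* was at 2.45 (adjusted p = 0.00220), *Mrc1* at -0.46 (adjusted p = 0.103), *Arg1* at -0.44 (adjusted p = 0.523) and *Saa3* at -0.53 (adjusted p = 0.252). *Mrc1* was called in the fit without a filter (-0.43, adjusted p = 0.0264) and without any 1 of pools 1, 6 and 14 (-0.51 to -0.49, adjusted p = 0.0265 to 0.0414). It was also called lower in the second run (-0.59, adjusted p = 0.00689), with all barcodes (-0.70, adjusted p = 0.000167) and with doublets kept (-0.38, adjusted p = 0.0472). The thinned gate (-0.83, adjusted p = 0.000807) and a gate of 6 UMIs (-0.87, adjusted p = 0.000541) called it lower too. With granule cells left out it was at -0.16 (adjusted p = 0.444). The fit without a filter put *Ear1* at -1.33 and *Ear2* at -1.32, given without a p.

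**Figure D4:**
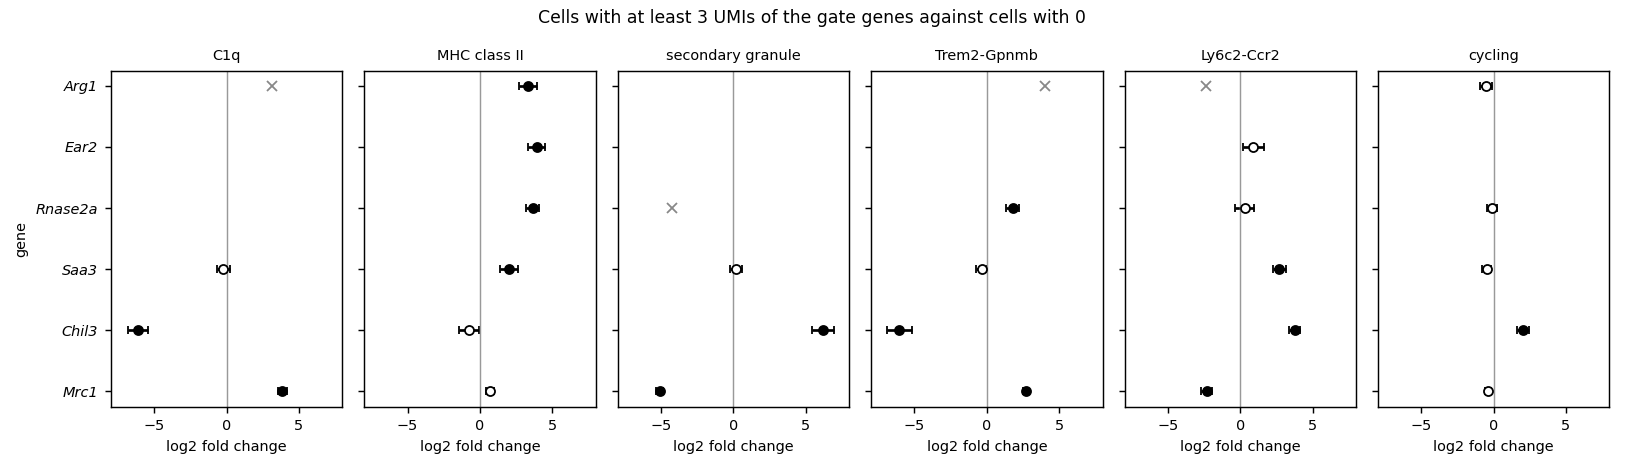
Log2 fold change of each tested member in the 6 comparisons of cells with at least 3 UMIs of the gate genes against cells with 0, with bars of 1 SE, filled points for an adjusted p of at most 0.05 and grey crosses, without SE or p, for members at 0 in 5 or more pools of a side. *Chil3* runs from -6.13 in the C1q comparison to 6.17 in the granule comparison, and *Arg1* is at 3.33 in the MHC class II comparison.

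Put in order, *Chil3* was at 18613 ± 5585 CPM (SD, n = 11 pools) in granule cells, 14530 ± 7663 (n = 9) in *Ly6c2*-*Ccr2* cells and 11823 ± 5548 (n = 9) in cells with the primary-granule genes *Mpo*, *Elane*, *Prtn3* and *Ctsg*, neighbours that lie within 1 SD of each other. It was at 2537 ± 3476 in MHC class II cells (n = 10), 1169 ± 1959 in osteoclast-gene cells (n = 16), 698 ± 1196 in *Trem2*-*Gpnmb* cells (n = 16) and 342 ± 480 in C1q cells (n = 16). *Arg1* was at 264 ± 319 in MHC class II cells, 122 ± 204 in osteoclast-gene cells, 101 ± 172 in C1q cells and 93.4 ± 156 in *Trem2*-*Gpnmb* cells, which overlap, and at 0.594 ± 1.57 in granule cells. Cells with the basophil and mast cell genes *Mcpt8*, *Cpa3*, *Ms4a2* and *Prss34* were at 0.396 ± 1.29 CPM of *Arg1* (n = 13), and lining cells of vessels at 0.179 ± 0.443 (n = 13). These sets of cells can share members, so their levels are set side by side without a test.

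Where each gene's transcripts sat is given by splitting the *Tyrobp* cells into 1356 granule cells, then 1646 MHC class II cells, 182 *Ly6c2*-*Ccr2* cells and 11932 others. MHC class II cells held 85.1% of the *Ear1* UMIs, 84.4% of *Ear2*, 79.1% of *Arg1*, 71.8% of *Rnase2a* and 62.8% of *Saa3* over all pools, sums that a few pools set. For *Arg1* the share was 59.7% to 98.1% in pools 5 to 8, where these cells were 11.4% to 38.6% of the *Tyrobp* cells, 80.3% in pool 18 and 35.8% in pool 14, and it was 33.3% or less in the other 10 pools, 5 of them at 0. The other cells held 68.4% of the *Mrc1* UMIs. Granule cells held 64.0% of the *Chil3* UMIs and 42.4% of those of *Retnla*, of which MHC class II cells held 54.6%. The split of *Chil3* differed by pool: granule cells held 99.6% of it in pool 1, where 8 cells had a *Chil3* UMI and 1 of them 573 of the 1056 UMIs, but 20.1% in pool 5 and 29.1% in pool 6, where MHC class II cells held 60.2% and 56.2%. The split has no set for C1q or *Trem2*-*Gpnmb* cells, which can be the same cells as those of MHC class II. Of the UMIs of all kept cells, the 10106 C1q cells held 82.7% (*Arg1*), 69.0% (*Ear1*), 68.2% (*Ear2*), 57.5% (*Rnase2a*) and 44.8% (*Saa3*). Without the order of the split, the 1662 MHC class II cells held 71.1%, 75.1%, 74.0%, 47.8% and 49.6% of them. C1q cells were 66.9% of the *Tyrobp* cells and MHC class II cells 11.0%.

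**Figure D5:**
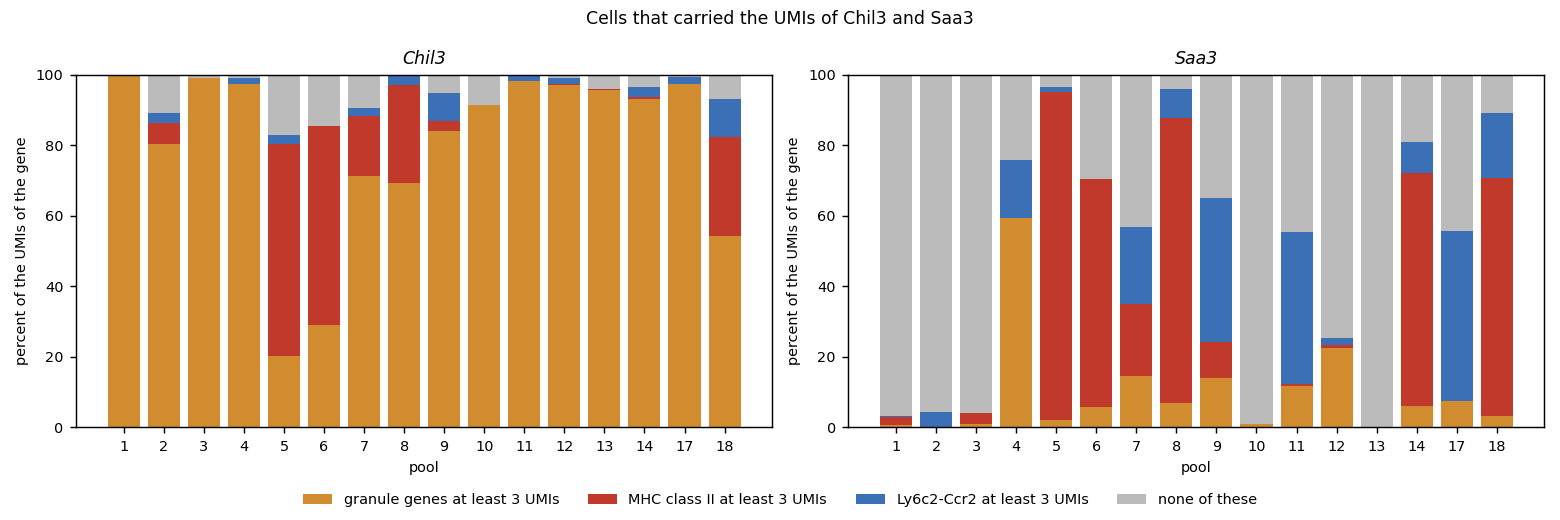
Percent of the *Chil3* and of the *Saa3* UMIs of each pool's *Tyrobp* cells that lay in granule cells, MHC class II cells, *Ly6c2*-*Ccr2* cells and other cells, as stacked bars from 0. Granule cells held most of the *Chil3* UMIs in pools such as pool 1 (99.6%, from 8 cells with a UMI), and MHC class II cells most of them in pool 5 (60.2%) and pool 6 (56.2%).

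Other genes of the interleukin-4 program were partly shared with the members. Of 20 listed genes (receptor chains, STAT6 and its targets), 6 of 14 tested were higher in MHC class II cells, where 7.62% of all genes were, and none lower: *Il13ra1*, *Ccl24*, *Mgl2*, *Clec10a*, *Irf4* and *Socs1*. The median log2 fold change of the list was 0.38, beside -0.02 for all genes. In C1q cells 10 of 13 were higher (22.6% of all genes) and 1 lower, and in *Trem2*-*Gpnmb* cells 9 of 12 higher (31.8% of all genes) and none lower. In granule cells none of 11 was higher and 10 were lower (33.2% of all genes), in *Ly6c2*-*Ccr2* cells none of 14 higher and 8 lower (22.8%), and in dividing cells none of 13 higher and 9 lower (23.9%). The counts of the lists that follow stand beside the same shares of all genes, and no list was tested as a whole. *Msr1*, a scavenger receptor, was higher in C1q cells (2.59) and lower in granule cells (-4.45), and was at 0.06 (adjusted p = 0.879) in the MHC class II comparison.

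Of 7 listed genes of arginine handling, 6 were tested in MHC class II cells, and *Ass1*, *Oat*, *Slc7a2* and *Odc1* were higher and none lower (list median 0.43). *Slc7a2*, which imports arginine, was 261 CPM against 36.0, a log2 fold change of 2.41 (SE 0.47, adjusted p = 0.00371). In the C1q and *Trem2*-*Gpnmb* comparisons the same list was mixed, with 0 higher and 3 lower in C1q cells and 2 higher and 2 lower in *Trem2*-*Gpnmb* cells. In granule cells 2 were higher and 3 lower, in *Ly6c2*-*Ccr2* cells 2 and 0, and in dividing cells 2 and 3.

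Relatives of the members were tested in part. *Chil1* followed *Chil3*, higher in granule cells (7.33, adjusted p = 1.10e-10) and lower in C1q cells (-6.12), but it was lower in MHC class II cells (-2.72, adjusted p = 0.00591). Of 4 chitinase-like genes listed, *Chit1* was also tested and higher in granule and *Ly6c2*-*Ccr2* cells. *Retnlg*, a resistin-like gene of neutrophils, was higher in granule cells (8.46, adjusted p = 8.18e-10) and lower in MHC class II cells (-4.89, adjusted p = 1.04e-06), and was the 1 of 3 listed that passed the filter. Of 9 further genes of the RNase A family, 1 or 2 were tested, and *Rnase4* was higher in C1q (2.48, adjusted p = 4.28e-10) and *Trem2*-*Gpnmb* cells and lower in granule (-2.79) and *Ly6c2*-*Ccr2* cells. None of the 3 listed serum amyloid A genes passed the filter, with 26 UMIs of *Saa1* and 20 of *Saa2* in all *Tyrobp* cells.

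Among 7 mannose and scavenger receptors, 4 of 5 tested (*Marco*, *Cd36*, *Lyve1*, *Stab1*) were higher in C1q and in *Trem2*-*Gpnmb* cells, as *Mrc1* was, and *Mrc2* was lower. In MHC class II cells *Cd36* (-1.28, adjusted p = 5.41e-05) and *Stab1* were lower and none higher. In granule cells 3 of 4 were lower, in *Ly6c2*-*Ccr2* cells 5 of 5 and in dividing cells 1 of 5. Of 10 genes of classical activation, 5 of 8 tested were higher in MHC class II cells (*Ptgs2*, *Il6*, *Cxcl10*, *Cd86*, *Cd80*) and none lower. *Tnf* was higher in C1q cells (2.09) and at -0.13 (adjusted p = 0.809) in the MHC class II comparison. In C1q cells 5 of 7 were higher, in *Trem2*-*Gpnmb* cells 4 of 7, in granule cells 1 with 5 lower, in *Ly6c2*-*Ccr2* cells 3 with 1 lower and in dividing cells 1 with 4 lower.

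Across pools, the levels of *Arg1*, *Mrc1* and *Saa3* are set side by side as a description, without a test, since the levels and their spread over pools were among the values that chose the genes. Pearson's r over 16 pools was 0.836 for *Arg1* and *Mrc1* (Spearman's rho 0.865), 0.592 for *Arg1* and *Saa3* (rho 0.712) and 0.634 for *Saa3* and *Mrc1* (rho 0.665). With the 2 most extreme pools left out, r was 0.760, 0.620 and 0.740. Over the 12 pools other than 5 to 8 it was 0.757, 0.637 and 0.473. All points share the *Tyrobp* gate and differ in depth and in the mix of cells. No pooled r is given for *Ear1*, *Ear2*, *Rnase2a*, *Chil3* and *Retnla*, whose pools were split by a gap of over 25% of their log2 range, a limit set after the levels were seen.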

How the data were processed

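Cells of BMSC-OB cultures from Diversity Outbred mice were profiled with 10x Genomics 3′ v2 chemistry in 16 pools, and the authors' Cell Ranger 5.0.0 output on mm10, deposited as UMI counts per gene and droplet, was used as it stands. The annotation release is not given in the sources used here. Droplets with 400 to 6200 detected genes (limits that the study states in reads) and at most 10% mitochondrial, 20% *Rpl* and 15% *Rps* UMIs were kept (88909 of 107853), and 5003 with the highest simulated-doublet scores were removed (a number in proportion to the barcodes of the pool, 2 simulated per droplet, 30 components, 2000 variable genes). Genotype-based doublet calls were not used here. The 8 genes and all lists were chosen with earlier results of these data known. Besides gate and marker genes, the named genes were drawn from the 8 members, the 2 most abundant genes of each list, and the 5 genes most like each member. Not all of these are printed, and genes called in a list were named after their values were seen.

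UMI counts were summed per pool and side of a gate (pools with at least 20 cells on both sides) and tested with edgeR 4.0.16 (filterByExpr, TMM, quasi-likelihood, pool as a block) in R 4.3.3 with Benjamini-Hochberg adjustment over all genes tested, leaving the gate genes out of counts. The pool pairs both sides by design, since they are droplets of 1 library, and the median correlation of same-pool deviations over genes was 0.121 to 0.455 in the 6 comparisons. On simulated counts with 200 genes changed by a log2 fold of 1, the test recovered between 56.5% (*Ly6c2*-*Ccr2*, 9890 genes) and 97% (dividing cells, 9405 genes) of them. The simulated counts had no pool effect and fewer changed genes than were called in the data. These shares therefore do not measure recovery with pools that differ. The SE of a log2 fold change is its size divided by the square root of the quasi-likelihood F statistic. It is therefore no error estimate apart from the test. Intervals are exact binomial at 95%, and intervals and floors (3 counts) cover counting error only. Correlations over pools used log2(CPM + 1), and the permutation test planned for them is not given, since the levels chose the genes. Python 3.11.15, scipy 1.17.1 and scikit-learn 1.9.0 were used for the rest. Alternatives were run 2, DESeq2 1.42.0, RLE scaling, no low-count filter, no pool block, other *Tyrobp*, gate, doublet, collagen and depth limits, and each pool left out.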

Additional observations from a re-analysis of the deposited data

How the results depend on the processing

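The number of genes called was within 1.5 times of the reported one under most alternatives. It became 8548 (C1q) and 9242 (*Trem2*-*Gpnmb*) with *Tyrobp* at 1 UMI or more. For MHC class II it became 2455 with doublets kept, 3002 with all deposited barcodes, 2102 with the gate on thinned counts, 889 with granule cells left out and 335 without pools 5 to 8. For *Ly6c2*-*Ccr2* it became 2042 (thinned gate), 2497 (gate of 6 UMIs) and 210 (granule cells left out). Alternatives that leave out granule cells or pools 5 to 8 were chosen after seeing the data.

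The number of members called, which includes members at 0 in many pools of a side, became 5 (C1q) and 2 (MHC class II, from 4) with *Tyrobp* at 1 UMI or more, 1 (MHC class II) and 2 (*Trem2*-*Gpnmb*) without pools 5 to 8, 6 (granule) with no low-count filter, and 0 (*Ly6c2*-*Ccr2*) with granule cells left out. In dividing cells it was 0 with no replicate block, 4 with no low-count filter or with all barcodes, and 2 in the second run, with doublets kept, with *Tyrobp* at 5 UMIs or more, with collagen under 1%, with the thinned gate and with a gate of 6 UMIs. *Saa3* was called lower there with *Tyrobp* at 5 UMIs or more (-0.81, adjusted p = 0.0269). With all barcodes *Arg1* (-0.88, adjusted p = 0.0118) and *Saa3* (-0.62, adjusted p = 0.0446) were called lower. Without the replicate block the calls were 4160 (C1q), 1057 (MHC class II), 5630 (granule), 5547 (*Trem2*-*Gpnmb*), 4689 (*Ly6c2*-*Ccr2*) and 3362 (dividing cells), and the block changed no other call of members than *Chil3* in dividing cells. Leaving out 1 pool gave 4217 to 4940 genes (C1q, 3 to 4 members), 944 to 1378 (MHC class II, 3 to 5), 4958 to 5745 (granule, 2 to 4), 5325 to 5877 (*Trem2*-*Gpnmb*, 3 to 4), 3512 to 4270 (*Ly6c2*-*Ccr2*, 4 to 5) and 4318 to 4627 (dividing cells, 1 to 2). *Rnase2a* then passed the low-count filter in 7 of 11 (granule) and 10 of 16 (*Trem2*-*Gpnmb*) of these fits.

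Most reversed directions belonged to values that were not called. *Saa3* in the C1q comparison went to 0.017 (second run), 0.42 (thinned gate) and 0.034 (granule cells left out), and to 1.34, then called, with *Tyrobp* at 1 UMI or more, as it did to 1.33 in the *Trem2*-*Gpnmb* comparison. In the *Trem2*-*Gpnmb* comparison *Saa3* was called lower with *Tyrobp* at 5 UMIs or more (-1.40, adjusted p = 0.0117) and with the thinned gate (-0.88, adjusted p = 0.00824). In the granule comparison *Saa3* went to -0.28 with no replicate block and to -0.074 and -0.056 without pools 4 and 9 (up to 0.51 without 1 pool). In *Ly6c2*-*Ccr2* cells *Ear2* went to -0.056 with no block, and *Rnase2a* to -0.62 with no block, -0.24 in the second run and -0.12 and -0.021 without pools 9 and 17 (up to 0.86 without 1 pool). In dividing cells *Arg1* went to 0.24 with no block, and *Rnase2a* to 0.63 with no block, 0.080 with *Tyrobp* at 1 UMI or more, 0.10 with granule cells left out and 0.052, 0.016 and 0.14 without pools 7, 8 and 18 (down to -0.60 without 1 pool). With granule cells left out *Chil3* reversed to 2.42 (MHC class II, not called before) and to -1.35 (dividing cells, where 2.02 had been called). Over 7 alternatives, r across pools was 0.710 to 0.871 for *Arg1* and *Mrc1*, 0.546 to 0.606 for *Arg1* and *Saa3* and 0.571 to 0.672 for *Saa3* and *Mrc1*. The cause of these changes was not tested.

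*Mrc1* was called in MHC class II cells in the second run (0.96, adjusted p = 0.0141) and with the thinned gate (1.23, adjusted p = 0.00235). It was called there too with collagen under 1% (0.97, adjusted p = 0.0169) and with a gate of 6 UMIs (1.05, adjusted p = 0.0254). *Saa3* was not called in MHC class II cells with DESeq2 (1.36, adjusted p = 0.305) or with all deposited barcodes (1.29, adjusted p = 0.0646). RLE scaling moved the median of all genes in the granule comparison from -0.08 to -0.19. Free RNA limits shares near those of *Tyrobp*-zero cells, and *Ear1* and *Ear2* were told apart on transcripts that are 96.0% identical.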
